A study of Homo sapiens with 54 samples.

Results

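The HOX cluster genes are the 39 members of the 4 human HOX clusters, taken as the rows of both count tables whose symbol is HOX, a cluster letter from A to D and a number; they are 39 of 33119 genes in the tables. HOXA holds 11 members (chromosome 7, 27092993 to 27200091), HOXB 10 (chromosome 17, 48528526 to 48728750), HOXC 9 (chromosome 12, 53938831 to 54056030) and HOXD 9 (chromosome 2, 176087487 to 176190907; positions from RefSeq, GRCh38.p14). The rule reads symbols and no measured value; the group itself was proposed with earlier results of these data known. The data are 3′-end RNA libraries, 54 in number, of 6 established human cancer cell lines, in 18 groups of 3 that come in 2 sets. Set 1 holds 12 libraries, the colorectal lines SW48 and SW620 as controls and with trametinib, which blocks the MEK kinases of the RAS pathway. Set 2 holds 42 libraries: SW48 and SW620 as controls, with trametinib and with palbociclib, which blocks CDK4 and CDK6 and so the entry into S phase, and the stomach lines NCI-N87 and MKN-45 and the breast lines BT-20 and BT-474 as controls and with afatinib, a blocker of the ERBB receptors. Doses, exposure times and what the controls received are not known here. Whether the 3 libraries of 1 group are separate cultures is not stated, so p-values measure the spread among these libraries only, and that spread may be technical.

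HOX genes code for homeodomain transcription factors that set the identity of body regions along the head-to-tail axis. Within a cluster the genes lie in the order of the regions they act in, so that low numbers (paralogue groups 1 to 3, anterior) act towards the head and high numbers (9 to 13, posterior) towards the tail, and members with the same number in different clusters are paralogues. They bind DNA together with partners of the TALE class (PBX, MEIS and PKNOX proteins), Polycomb complexes keep silent members shut and trithorax-type methyltransferases keep active ones open. In the gut they lie downstream of the caudal-type factors CDX1 and CDX2, and adult epithelia keep a regional HOX pattern.

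Levels are given as CPM, the usual scaling of a gene's counts to the total of its library. Libraries held 4063382 to 10622670 counts in set 1 and 3401565 to 12806042 in set 2, and the 39 members together took 498 to 1984 CPM and 478 to 1822 CPM of them. A member with at most 3 counts in each library of a group is called not detected there; 3 counts correspond to 0.234 to 0.882 CPM in set 2. The same line differed between the sets: among SW48 controls HOXB5 stood at 31.5 ± 0.963 CPM in set 1 and 113 ± 5.24 in set 2 (SD, n = 3), HOXB4 at 1.79 ± 0.855 and 21.5 ± 2.69, and among SW620 controls HOXB9 at 5.74 ± 0.593 and 46.3 ± 5.73, so each drug was compared only with controls of its own set. In set 1 the share of reads listed as not aligned was 42.4 to 47.5% in the SW48 libraries with trametinib and 22.4 to 38.0% in their controls, and the summed level of 7 mammary luminal markers was 128 to 164 CPM and 109 to 264 CPM (2 of 7 expressed in both groups, FOXA1 and TRPS1), against 14.1 to 18.3 CPM in SW48 controls of set 2; their part in the results below was not tested. The mammary sum was also higher in SW620 of set 1 (115 to 290 CPM in controls and 63.4 to 105 CPM with trametinib) than in SW620 controls of set 2 (5.93 to 9.59 CPM). SW620 control 3 of set 1 stands apart. It had HOXA10 at 475 CPM against 2.75 and 11.7 CPM in the other two controls and 9.78 to 19.5 CPM with trametinib, and all members together at 1019 CPM against 498 and 562 CPM. Its fibroblast or mesenchymal markers summed to 57.6 CPM against 183 and 195 CPM, its intestinal markers to 333 CPM against 228 and 213 CPM, and 0.338% of its reads were listed as not aligned, against 2.96 and 4.68%. Of 8 intestinal markers, SW48 controls expressed (1 CPM or more in each of 3 libraries) 3 in set 1 and 4 in set 2, SW620 controls 4 in each set, with CDX2 and ASCL2 in all of these, and the stomach line NCI-N87 also 4, among them CDX2 and CDH17. Their sum was 126 to 147 CPM in SW48 and 408 to 441 CPM in SW620 controls of set 2, and 263 to 300 CPM in NCI-N87, whose 6 gastric markers summed to 35.2 to 44.9 CPM. MKN-45 controls expressed 5 of the 8 intestinal markers, CDX2 and CDH17 among them, with a sum of 158 to 175 CPM. BT-474 controls expressed 2 of them (143 to 180 CPM) and BT-20 controls 0 (0 to 4.91 CPM). All 7 mammary luminal markers were expressed in BT-474. BT-20 controls expressed 4 of those 7. Of the gastric markers, NCI-N87 controls expressed 1 (ANXA10) and MKN-45 controls 5.

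Some members share bases with other listed genes in the GENCODE v29 annotation, and the strand setting of the counting is not known here, so their reads cannot be fully told apart. Of the last 400 exonic bases, where 3′ reads fall, HOXA7 shares 100% and HOXA4 63.5% with antisense genes (HOXA-AS3, HOXA-AS2), and HOXB6 shares 41.5% with HOXB-AS3. A listed readthrough gene, HOXA10-HOXA9, has 0 counts in all 54 libraries; HOXA9 itself was at 0.637 ± 0.316 CPM in SW48 controls of set 2. Values of these 4 members are uncertain wherever they appear below, also where this is not repeated.

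RefSeq promoter windows of GRCh38.p14, 300 bases each, were at hand for 20 of the 39 members. HOXB1 is the only HOXB member among them, so the windows say nothing of the HOXB members that change in SW48. HOXA3, which changes there too, has 7 windows that are not shown. Those of HOXA2, HOXA4, HOXA6, HOXA10, HOXC5 and HOXD4, each called in SW48 with a drug in at least 1 comparison, are not shown either. Windows of 3 other members that change in SW48 are shown, from 5′ to 3′ on the gene's own strand, with matches to TTTAT or its reverse complement ATAAA, the core of the motif bound by CDX factors, in capitals. HOXA11 lies at chr7:27185183-27185482 (minus strand), HOXA13 at chr7:27200042-27200341 (minus strand) and HOXD8 at chr2:176129455-176129754 (plus strand).
HOXA11: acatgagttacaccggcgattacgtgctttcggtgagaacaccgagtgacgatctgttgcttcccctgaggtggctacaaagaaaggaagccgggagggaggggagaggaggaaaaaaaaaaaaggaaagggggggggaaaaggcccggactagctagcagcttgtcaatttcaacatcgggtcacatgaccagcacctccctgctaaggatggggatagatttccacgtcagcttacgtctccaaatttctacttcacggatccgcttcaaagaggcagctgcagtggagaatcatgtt
HOXA13: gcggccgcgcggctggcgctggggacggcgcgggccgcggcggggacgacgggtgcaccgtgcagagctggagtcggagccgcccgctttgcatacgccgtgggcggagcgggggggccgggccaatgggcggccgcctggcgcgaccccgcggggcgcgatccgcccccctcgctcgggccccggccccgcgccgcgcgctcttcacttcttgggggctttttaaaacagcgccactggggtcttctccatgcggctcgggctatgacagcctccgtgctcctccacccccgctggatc
HOXD8: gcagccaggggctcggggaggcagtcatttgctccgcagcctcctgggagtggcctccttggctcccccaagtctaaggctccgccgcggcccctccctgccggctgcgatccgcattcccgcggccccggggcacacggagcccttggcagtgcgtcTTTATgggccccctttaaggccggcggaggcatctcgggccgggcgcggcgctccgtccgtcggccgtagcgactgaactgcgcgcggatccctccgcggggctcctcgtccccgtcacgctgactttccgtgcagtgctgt
HOXD8 has 1 match and the other 2 windows have none. Among the windows not shown, HOXA2 and HOXA4 have 1 match, HOXA10 has 1 in each of 2 windows, and HOXC5 and HOXD4 have 2. HOXA6 has none. Of all 35116 promoter windows, 34.9% hold at least 1 match, as do 15 of the 27 HOX entries. These entries are not independent: 7 of them, 5 with a match, are windows of HOXA3, and HOXC4 and HOXC5 share 1 window. Counted by member, 10 of 20 have a match in any of their windows. The HOXA11 window shares 275 bases with that of HOXA11-AS, which runs on the opposite strand. A match is a run of letters, not a measured binding site.

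Untreated cells of all 6 lines expressed HOX genes, but each line used its own part of the clusters. Counting a member as expressed when it reached 1 CPM in each of the 3 controls, SW48 expressed 28 of 39 in set 2, MKN-45 28, SW620 27, BT-20 23, NCI-N87 20 and BT-474 18. 11 members were expressed in all 6 lines (HOXA5, HOXA11, HOXB6, HOXB7, HOXB9, HOXC4, HOXC6, HOXC8, HOXC9, HOXC10 and HOXC13), and 6 in none (HOXA9, HOXB1, HOXC12, HOXD1, HOXD12 and HOXD13). The summed HOXB level ran from 180 ± 3.68 CPM in BT-474 to 632 ± 21.0 in SW48, the HOXA level from 12.6 ± 1.53 in BT-474 to 333 ± 3.29 in SW48, and the HOXC level from 133 ± 4.84 in SW48 to 282 ± 5.48 in BT-474. HOXD was low throughout, from 0.457 ± 0.791 CPM in NCI-N87 to 54.1 ± 6.11 in SW620. By position, anterior members were expressed least often in BT-474 (0) and most often in SW48 (6), and posterior members were found in each line (8 to 11).

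**Figure D1:**
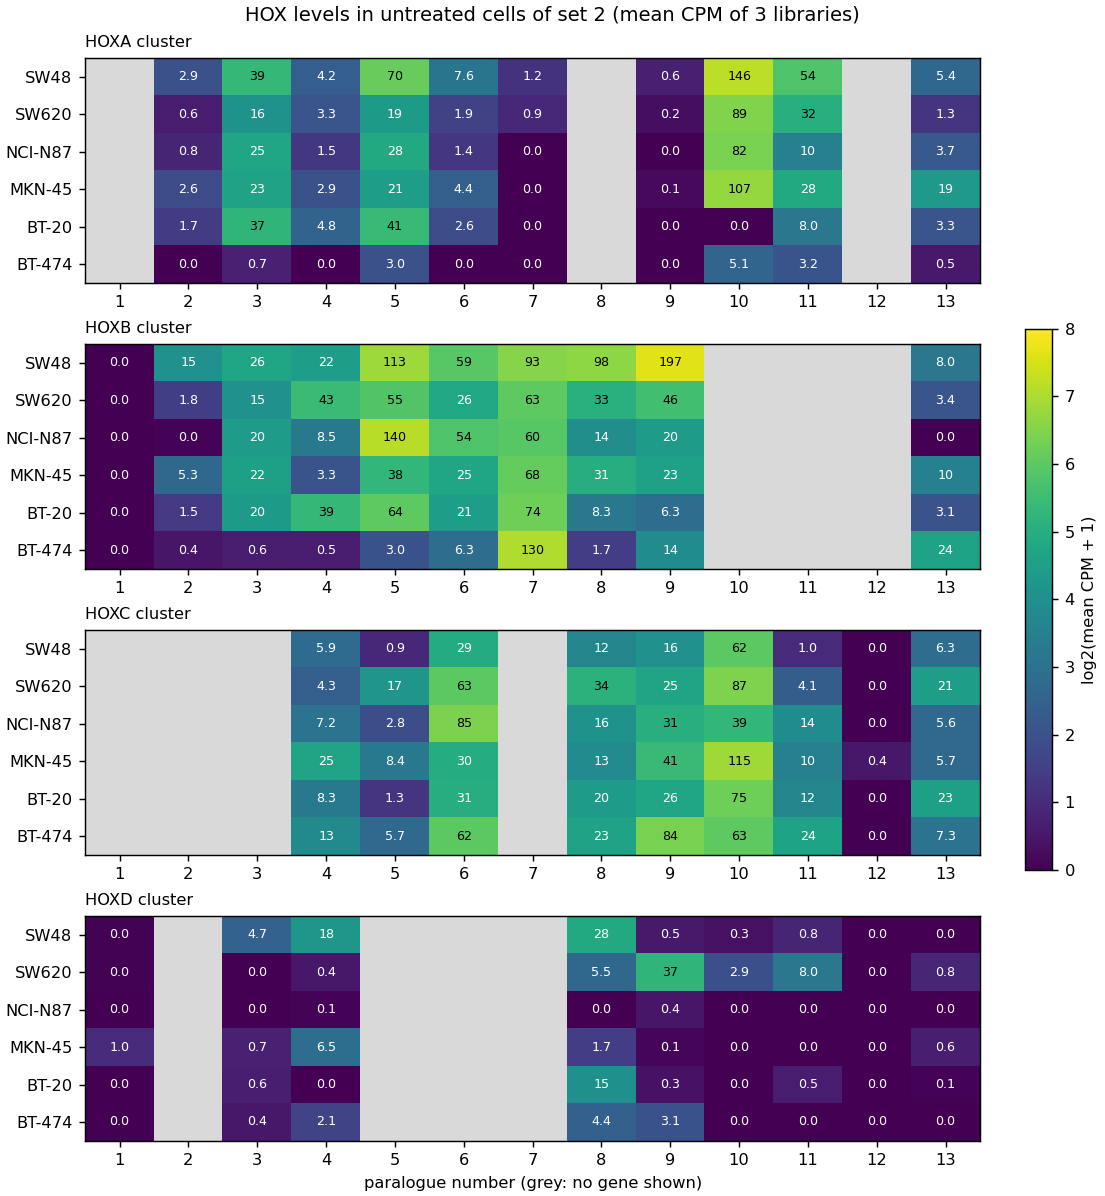
Mean level of HOX members in untreated cells of set 2: columns are paralogue numbers within a cluster, rows are cell lines, numbers are mean CPM of 3 libraries and colour is log2(mean CPM + 1). HOXB5 to HOXB9 are at 59 CPM or more in SW48, HOXA10 is at 0.0 in BT-20 alone, and HOXD9 is at 37 in SW620.

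SW48 had the highest mean of the 6 lines for 12 of the 27 members that reached 5 CPM in some line, and for 10 of them its 3 controls lay above every library of the next line. A member enters this count through the line in which it is highest, and no share over all genes stands beside it. The count therefore describes levels and does not set HOX members apart from other genes. Of 32 members tested across the lines with edgeR's quasi-likelihood test, 21 were higher and 8 lower in SW48. Each line was set against the mean of the other 5 (Benjamini-Hochberg adjusted p under 0.05). Over all genes tested 33.9% were higher and 26.5% lower (60.5% in all). One of those counted as higher, HOXD3, met the 1 CPM rule in SW48 alone (mean 4.75 CPM, at most 0.661 CPM in another line). It passed the filter through the line where it is high. HOXB9, a posterior factor of the thoracic region, stood at 202, 205 and 185 CPM in SW48 and at 43.7, 42.3 and 52.9 CPM in SW620, the next line (log2 difference from the other lines 3.37, SE 0.10). HOXB8 stood at 105, 102 and 87.6 CPM and HOXA11, a factor of limb and reproductive tract, at 52.2, 56.5 and 54.3 CPM, above every library of the other lines. HOXA10 reached 148, 149 and 141 CPM in SW48, followed by MKN-45 (107, 110.3 and 103). HOXD4 (11.2, 22.9 and 19.2 CPM) and HOXD8 (30.7, 27.8 and 25.5 CPM) were also highest there. HOXC11 was expressed in the set 2 controls of every line but SW48 (0.654, 1.57 and 0.735 CPM), and in the SW48 controls of set 1 it met the 1 CPM rule, at 3.43 ± 1.88 CPM.

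SW620 had the highest levels of 3 posterior members of HOXD, with HOXD12 and HOXD13 short of the 1 CPM rule in it as in the other lines. HOXD9 stood at 34.8, 32.2 and 42.6 CPM, HOXD11 at 9.25, 7.39 and 7.34 CPM and HOXD10 at 3.43, 2.40 and 2.81 CPM, and every library of the other 5 lines was below 4 CPM at each of these 3 members, which pattern limbs. HOXC5 was higher in SW620 as well (14.5, 17.8 and 18.5 CPM against at most 9.59 elsewhere), as was HOXC8 (39.5, 31.7 and 31.2 CPM against at most 24.2). HOXB4, known for expanding blood stem cells, stood at 42.8 ± 9.19 CPM in SW620 and 39 ± 3.73 in BT-20, whose libraries overlap. In all 17 members were higher and 5 lower in SW620 than in the mean of the other lines. Over all genes it was 37.1% and 26.4% (63.5% in all). Counted as higher are HOXD10 and HOXD11, which met the 1 CPM rule in SW620 alone. They passed the filter through the line where they are high.

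Between the stomach lines, MKN-45 had HOXA13, a factor of the hindgut and limb tip, at 20.4, 19.3 and 17.6 CPM, against 4.90, 3.55 and 2.56 CPM in NCI-N87 and at most 5.88 CPM in any other line. HOXC10 (115, 121 and 110.3 CPM) and HOXC4 (26.6, 22.9 and 24.1 CPM) were also highest in MKN-45. NCI-N87 had HOXB5, known from gut innervation and lung, at 114, 158 and 146 CPM, which overlaps SW48 (117, 116 and 107), and HOXC6 at 74, 100.0 and 82 CPM, above every library of the other lines. It had no HOXD member at the 1 CPM rule, 8 of 9 were not detected, and HOXB13, best known from prostate, had 0 counts in its 3 controls, where 3 counts would be 0.409 to 0.587 CPM. Of 32 members 19 were higher and 5 lower in MKN-45 (34.2% and 28.9% of all genes, 63.2% in all) and 8 were higher and 10 lower in NCI-N87 (34.5% and 27.4%, 61.9% in all).

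The breast lines were unlike each other. In BT-20 HOXA10, which acts in the uterus and in blood progenitors, had 0 counts in each of 3 controls and 1 count in 3 afatinib libraries together, while HOXA3 in the same cluster stood at 36.1, 37.4 and 36.8 CPM and HOXA11 at 7.84, 9.93 and 6.21 CPM. HOXC13, a hair and nail factor, was at 25.4, 18.5 and 23.7 CPM in BT-20, overlapping SW620 (20.6, 21.6 and 20.7). BT-474 expressed 3 of 11 HOXA members and 4 of 10 HOXB members, and in it HOXA3, HOXB3, HOXB4, HOXB5 and HOXB8 fell short of the 1 CPM rule that the other 5 lines met. HOXB7 was in turn highest there at 133, 121 and 137 CPM, as were HOXB13 (25.4, 22.7 and 23 CPM), HOXC9 (78.3, 86.7 and 86.3 CPM) and HOXC11 (23.2, 24.6 and 23.5 CPM), each above every library of the other lines. Against the mean of the other lines 11 members were higher and 14 lower in BT-474 (33.7% and 27.2% of all genes, 60.9% in all), and 10 were higher and 11 lower in BT-20 (37% and 30.4%, 67.3% in all). The shares of all genes called are high in every line, so counts of called members say little about the clusters on their own. A call of higher is also relative to a mean that 1 low line can pull down. HOXB3 was called higher in SW620 (0.72) at 15.4 CPM, below every line but BT-474 (0.576 CPM). HOXA10 was called higher in NCI-N87 at 82.5 CPM, below SW48, MKN-45 and SW620, with BT-20 at 0. Members near the floor are counted too: HOXD11 was called higher in SW48 (0.782 CPM) and BT-20 (0.513 CPM), and HOXD3 in MKN-45 (0.661 CPM). Log2 differences that involve a line with 0 counts depend on the model's prior count and are not printed.

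Trametinib raised most HOXB members of SW48 in set 1 (7 of 9 tested rose and 1 fell) and in set 2 (6 of 9 rose and 2 fell). In set 1, 12 of 27 members tested rose and 4 fell (59.3% of them called, against 35.4% of all 12235 genes: 16% rose and 19.4% fell). In set 2, 9 of 29 rose and 11 fell (69.0% against 60.1% of 12688 genes, of which 30.1% rose and 30.1% fell), so there the share called is close to that of all genes. The median log2 fold change of the tested members was 0.82 in set 1 and -0.01 in set 2, beside 0.01 and 0.01 over all genes tested. The 2 sets share no library: of 26 members tested in both, 8 were called higher in both (HOXA13, HOXB3, HOXB4, HOXB5, HOXB6, HOXB7, HOXB13 and HOXC6), 4 lower in both (HOXA3, HOXA11, HOXB2 and HOXD8), 2 rose in set 1 and fell in set 2 (HOXC8 and HOXC9), and 5 were called in neither (HOXA4, HOXA10, HOXC4, HOXC13 and HOXD3). As shares these are 30.8%, 15.4%, 7.69% and 19.2% of the members, beside 11.8%, 14.3%, 0.694% and 30.4% of the 11954 genes tested in both sets. Log2 fold changes are drug minus control on the scale of the fit, which corrects the library totals with TMM factors, and can differ from the ratio of CPM.

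HOXB5 stood at 31.7, 30.4 and 32.4 CPM in the SW48 controls of set 1 and at 362, 425 and 498 CPM with trametinib (log2 fold change 3.62, SE 0.13, adjusted p = 2.93e-06 by edgeR). In set 2 HOXB5 went from 117, 116 and 107 CPM to 178, 193 and 215 CPM (0.66, SE 0.08). In both sets the groups lie apart, and the controls of set 1 were the lower ones. HOXB6 rose from 33.5, 44.1 and 37.3 CPM to 221, 147 and 174 CPM in set 1 (2.10) and from 56.6, 56.5 and 65.4 CPM to 114, 111 and 109 CPM in set 2 (0.78). HOXB-AS3, whose exons overlap HOXB6 on the other strand, rose too, by 1.82, SE 0.60, and 0.40, SE 0.13, so the share of each in the overlap cannot be told apart. HOXB7 rose from 72.9, 124 and 87.3 CPM to 292, 295 and 248 CPM in set 1 (1.42) and from 98, 86.4 and 94.9 CPM to 143, 149 and 156 CPM in set 2 (0.55). HOXB3, an anterior member of the pharyngeal region, rose from 9.14, 1.93 and 2.23 CPM to 27.1, 43.8 and 62.1 CPM in set 1 (3.22, SE 0.58) and from 27.7, 24.3 and 25 CPM to 43.1, 39.6 and 45.8 CPM in set 2 (0.61). HOXB4 rose from 2.45, 0.827 and 2.11 CPM to 7.29, 10.8 and 12.7 CPM in set 1 (2.37) and from 19.7, 24.6 and 20.3 CPM to 33.2, 36.2 and 44.5 CPM in set 2 (0.69). For these 5 members every treated library lay above every control of its set. Of 7 fibroblast or mesenchymal markers the summed level moved as well, from 7.44 to 23.8 CPM in controls to 81 to 99.3 CPM with trametinib in set 1 and from 17 to 18.7 CPM to 59 to 63 CPM in set 2 (3 and 4 of 7 expressed with trametinib, COL1A1 and VIM among them). The ribosomal RNA rows RNR1 and RNR2 took 1.63 to 3.81% of counts in controls and 4.64 to 5.64% with trametinib in set 1, and 0.970 to 1.60% and 2.25 to 3.33% in set 2. The 4 leukocyte markers summed to 24.9 to 30.2 CPM in controls and 15.6 to 17.5 CPM with trametinib in set 1, and to 12.6 to 14.4 CPM and 17 to 21.7 CPM in set 2, mostly CD68, with CD3E not detected in either set. Intestinal markers, CDX2 among them, summed to 101 to 122 CPM in controls and 410 to 485 CPM with trametinib in set 1. In set 2 it was 126 to 147 CPM and 299 to 331 CPM. Basal markers summed to 8.82 to 9.14 CPM and 0.390 to 2.46 CPM in set 1, and to 7.52 to 11.2 CPM and 3.50 to 6.63 CPM in set 2. The part of these in the result was not tested.

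The other HOXB members did not all follow. HOXB2, which specifies part of the hindbrain, stood at 19.6, 21.9 and 15.7 CPM in set 1 controls and 9.59, 14 and 12.9 CPM with trametinib (-0.79, adjusted p = 0.0269 by edgeR), and it fell in set 2 from 16.3, 14.7 and 15.2 CPM to 12.4, 9.62 and 9.83 CPM (-0.66). The HOXB2 call of set 1 was lost without control 1, control 2, trametinib 1 or trametinib 3. HOXB8 rose in set 1, from 78.3, 97.7 and 109 CPM to 192, 227 and 164 CPM (0.89), and was at -0.01 in set 2 (adjusted p = 0.924 by edgeR). HOXB9 was at -0.32 in set 1, not called, and fell in set 2 from 202, 205 and 185 CPM to 151, 161 and 181 CPM (-0.39). HOXB13, set apart from the others by a long gap, rose from 12.4, 13.5 and 9.79 CPM to 34.5, 35.2 and 26.7 CPM in set 1 (1.30) and from 8.39, 7.31 and 8.19 CPM to 15.5, 14.9 and 13.4 CPM in set 2 (0.74). HOXB1 had no count in any untreated library of set 2.

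**Figure D2:**
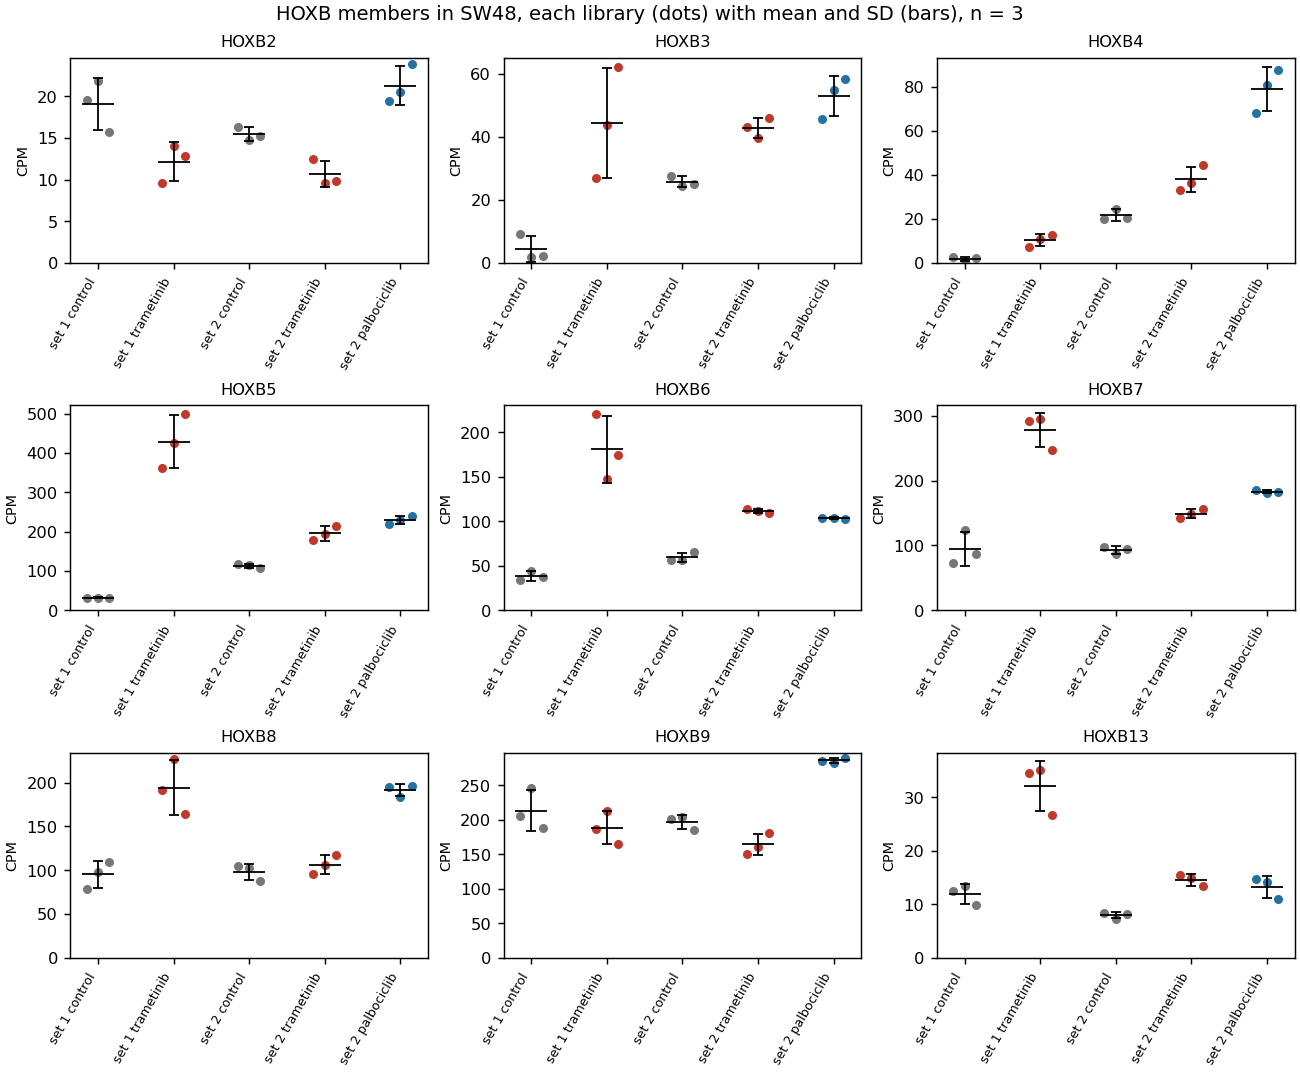
CPM of 9 HOXB members in each SW48 library (dots), with the mean and SD of 3 libraries (bars), by set and drug; each panel has its own vertical axis from 0. HOXB5 lies between 362 and 498 CPM with trametinib in set 1 and between 30.4 and 32.4 CPM in its controls, and HOXB9 is higher than its controls with palbociclib only.

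In the other clusters some members fell. HOXA11 went from 46.7, 28.2 and 32.7 CPM to 5.76, 0.984 and 5.07 CPM in set 1 (-3.27, SE 0.46) and from 52.2, 56.5 and 54.3 CPM to 25.2, 28.4 and 29.1 CPM in set 2 (-1.11, SE 0.08). Its antisense neighbour HOXA11-AS, whose promoter window overlaps the one shown above, was not called in either set (0.84 and 0.17). HOXD8 went from 36.1, 26.7 and 35.2 CPM to 7.10, 5.17 and 4.68 CPM in set 1 (-2.66, SE 0.24) and from 30.7, 27.8 and 25.5 CPM to 10.5, 9.50 and 10.3 CPM in set 2 (-1.59, SE 0.12). HOXA3, needed for the thymus and parathyroid, went from 25.8, 42.4 and 28.8 CPM to 5.37, 6.40 and 8.0 CPM in set 1 (-2.43) and from 39.3, 37.1 and 41.4 CPM to 19.6, 20.7 and 21.5 CPM in set 2 (-1.06). For each of these 3 members every treated library lay below every control of its set. HOXA13, the last member of HOXA and next to HOXA11 in the cluster, rose: from 11.1, 8.96 and 6.20 CPM to 25.7, 21.9 and 21.1 CPM in set 1 (1.25, SE 0.25) and from 4.58, 5.64 and 5.88 CPM to 16.5, 15 and 14.5 CPM in set 2 (1.38, SE 0.16).

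HOXC differed between the sets. HOXC6 rose in both, from 26.6, 24.7 and 29.5 CPM to 52.4, 73.1 and 67.1 CPM (1.11) and from 27.6, 30.9 and 29.7 CPM to 48.3, 50.2 and 61.4 CPM (0.73). HOXC9, which sets thoracic motor neuron identity, rose in set 1 from 20.6, 15.4 and 13.9 CPM to 33.6, 32.7 and 44.9 CPM (1.02) and fell in set 2 from 13.9, 15.2 and 17.5 CPM to 6.89, 8.40 and 9.71 CPM (-1.03). HOXC10, its lumbar counterpart, fell in set 2 from 63.2, 60.3 and 62.3 CPM to 31.4, 31.9 and 34.7 CPM (-1.05) and was at 0.18 in set 1, not called. HOXC8 was called higher in set 1 (12.7, 9.64 and 9.67 CPM to 18.6, 21.9 and 21.7 CPM, 0.82) and lower in set 2 (9.26, 15.6 and 10.6 CPM to 11.3, 6.70 and 7.43 CPM, -0.60), where its groups overlap. Both HOXC8 calls were lost without control 2, control 3, trametinib 2 or trametinib 3 of the set. No test between the sets was made. Of the rest, HOXD4 rose in set 1 (12.1, 7.30 and 8.06 CPM to 18.8, 23.1 and 20.9 CPM, 1.06). In set 2 HOXA5, a regulator of lung development, fell (68.6, 68.1 and 72 CPM to 49.7, 53.8 and 49.0 CPM, -0.58), as did HOXA6 (6.86, 7.83 and 8.09 CPM to 5.19, 5.72 and 5.94 CPM, -0.56) and HOXA2 (2.94 ± 0.453 to 1.55 ± 0.144 CPM, -1.04), and HOXC5 rose (0.878 ± 0.412 to 3.51 ± 1.33 CPM, 1.85). The members not called lay between -0.32 and 1.51 in set 1 and between -0.70 and 0.39 in set 2.

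**Figure D3:**
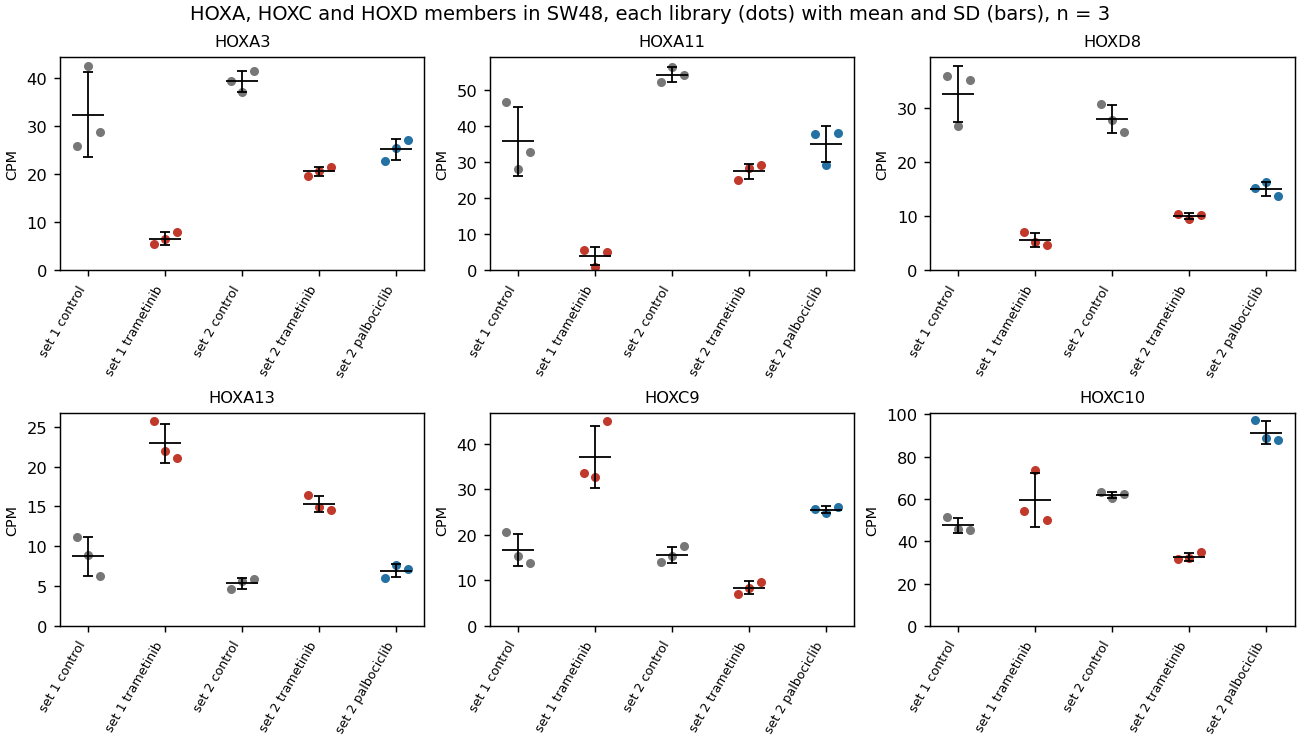
CPM of HOXA3, HOXA11, HOXD8, HOXA13, HOXC9 and HOXC10 in each SW48 library (dots), with the mean and SD of 3 libraries (bars), by set and drug; each panel has its own vertical axis from 0. HOXA3, HOXA11 and HOXD8 are below their controls in all 3 treated groups, and HOXC9 with trametinib is above its controls in set 1 and below them in set 2.

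Palbociclib raised all 9 HOXB members tested in SW48. In all 15 of 29 members rose and 4 fell (65.5% called, against 57.5% of 12690 genes, of which 28.3% rose and 29.2% fell), with a median log2 fold change of 0.51 beside 0.01 over all genes. The palbociclib and trametinib groups of set 2 share their controls, so their values are set side by side and the drugs were also compared directly. HOXB4 went from 19.7, 24.6 and 20.3 CPM to 68.1, 80.8 and 87.8 CPM (1.82, SE 0.11, adjusted p = 4.43e-09 by edgeR). HOXB5 reached 219.9, 228 and 239 CPM (0.97), HOXB3 45.8, 54.8 and 58.3 CPM (0.99), HOXB7 186, 181 and 182 CPM (0.92), HOXB8 195, 183 and 196 CPM (0.91) and HOXB9 286, 283 and 290.4 CPM (0.49), each above all 3 controls given above. HOXB6 rose to 104, 104 and 102 CPM (0.75), HOXB13 to 14.7, 14.1 and 10.9 CPM (0.69) and HOXB2 to 19.5, 20.5 and 23.9 CPM (0.41), also above all 3 controls. HOXB-AS3 rose by 0.63, and the HOXB2 call was lost without palbociclib 3. HOXA10 rose from 148, 149 and 141 CPM to 234, 226 and 235 CPM (0.62). HOXC6 rose to 46.8, 47.8 and 57.3 CPM (0.73), HOXC9 to 25.6, 24.7 and 26.1 CPM (0.66) and HOXC10 to 97.4, 88.6 and 87.7 CPM (0.51), with the controls given above. HOXC13 rose from 6.32, 5.43 and 7.04 CPM to 9.52, 10.7 and 10.2 CPM (0.64) and HOXA4 from 3.92, 4.91 and 3.89 CPM to 6.23, 6.60 and 6.26 CPM (0.53), and for these 5 the groups lie apart too. The HOXA4 call (adjusted p = 0.0463 by edgeR) was lost without control 1, control 3 or any 1 palbociclib library. The summed fibroblast or mesenchymal markers stood at 29.2 to 32.6 CPM with palbociclib, above the controls. RNR1 and RNR2 took 2.93 to 4.52% of counts, and the leukocyte markers summed to 20.6 to 28.1 CPM (mostly CD68), both above the controls as well. Intestinal markers summed to 185 to 208 CPM, also above the controls. The part of these in the result was not tested.

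The members that fell with palbociclib were HOXD8, to 15.2, 16.3 and 13.7 CPM (-0.94), HOXA3, to 22.8, 25.5 and 27.1 CPM (-0.70), HOXA11, to 38, 29.4 and 38.2 CPM (-0.68), and HOXA5, to 55.5, 55.1 and 57.9 CPM (-0.36). HOXA13 was at 6.0, 7.63 and 7.12 CPM and was not called (0.31, SE 0.21). Compared directly, trametinib against palbociclib, 1 of 29 members was higher and 18 were lower (65.5% called, against 41.9% of 12807 genes, of which 21% were higher and 20.9% lower). The higher one was HOXA13 (1.07, SE 0.16). HOXC9 (-1.69, SE 0.14), HOXC10 (-1.56, SE 0.08), HOXB4 (-1.13, SE 0.11), HOXB2 (-1.07, SE 0.14), HOXC8 (-1.06, SE 0.20), HOXB8 (-0.92, SE 0.08) and HOXB9 (-0.87, SE 0.07) were the lowest with trametinib. The others lower were HOXA6 (-0.73), HOXD8 (-0.65), HOXC13 (-0.63), HOXA4 (-0.54), HOXA10 (-0.53), HOXA11 (-0.42), HOXB3 (-0.38), HOXB7 (-0.37), HOXA3 (-0.36), HOXB5 (-0.31) and HOXA5 (-0.22). HOXB6 was not called between the drugs (0.03, SE 0.06). The calls of HOXA3, HOXA4, HOXA5 and HOXC13 were each lost on leaving out 1 of several libraries: palbociclib 3 or trametinib 1 for HOXA3, any of 6 for HOXA4, palbociclib 1 or 3 or trametinib 1 or 3 for HOXA5, and palbociclib 2 or 3 or trametinib 1 for HOXC13.

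**Figure D4:**
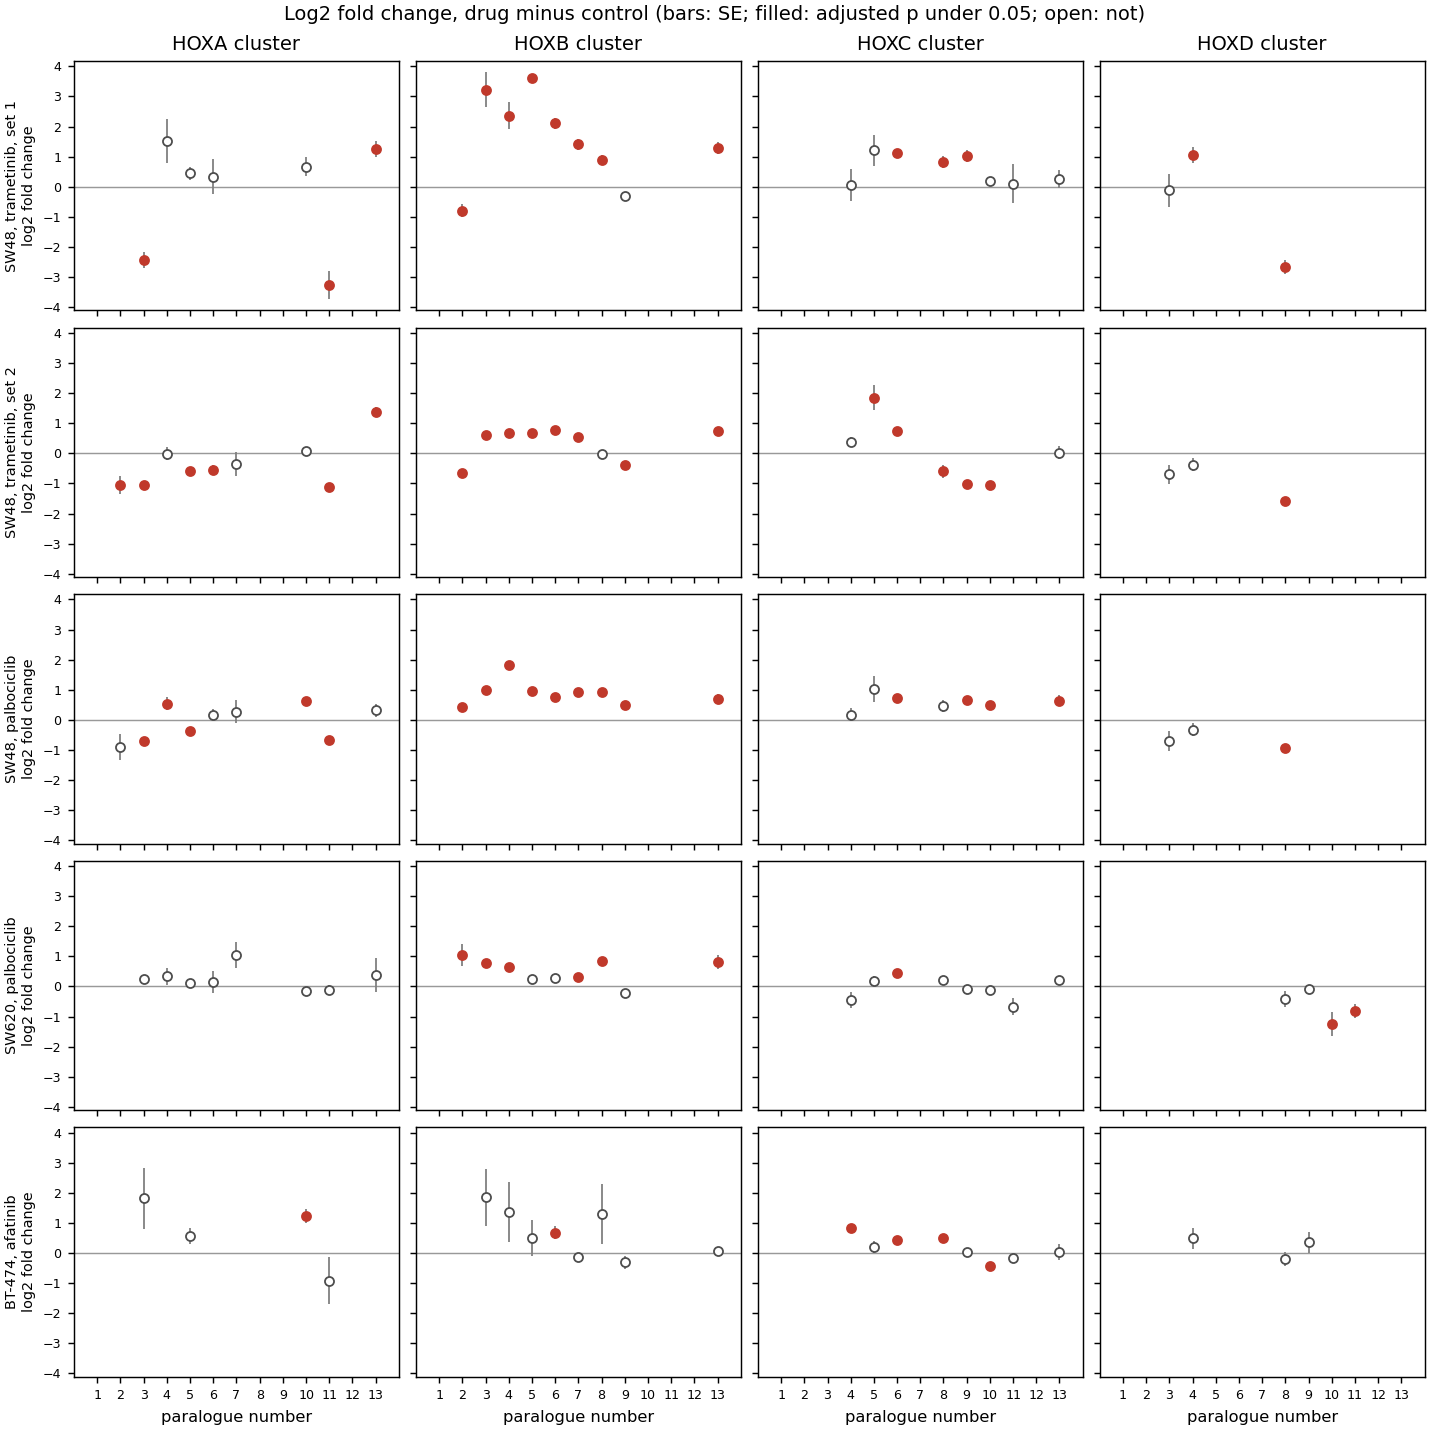
Log2 fold change of tested HOX members, drug minus control, by cluster (columns) and paralogue number (horizontal axis) in the 5 comparisons with called members (rows); bars are SE, filled points have an adjusted p under 0.05 and open points do not. In SW48 the points of HOXB3 to HOXB7 lie above 0 with both drugs and those of HOXA3, HOXA11 and HOXD8 below 0.

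In SW620 palbociclib raised a smaller part of HOXB, 6 of 9 members tested against all 9 in SW48. Over all clusters 7 of 30 members rose and 2 fell (30% called, against 35% of 13068 genes, of which 17.6% rose and 17.4% fell), a share near that of all genes. HOXB8 went from 30.7, 27 and 41.6 CPM to 61.2, 62.9 and 57.8 CPM (0.84, SE 0.14). HOXB3 went from 17.1, 12.9 and 16.3 CPM to 23.1, 30.8 and 26.2 CPM (0.76) and HOXB4 from 41.2, 34.5 and 52.6 CPM to 61.6, 73.5 and 69.3 CPM (0.64). HOXC6 went from 62.4, 54.9 and 71.5 CPM to 89.8, 86.3 and 88.4 CPM (0.46) and HOXB7 from 66.5, 61.9 and 61.6 CPM to 78.8, 82.1 and 80.0 CPM (0.32). For these 5 members the groups lie apart, and their calls held with each library left out. HOXB13 rose from 3.05, 3.10 and 3.90 CPM to 6.60, 6.44 and 5.18 CPM (0.82) and HOXB2 from 1.81 ± 0.847 to 3.77 ± 0.230 CPM (1.05). HOXD11 fell from 9.25, 7.39 and 7.34 CPM to 3.46, 4.16 and 6.17 CPM (-0.82) and HOXD10 from 2.88 ± 0.522 to 1.23 ± 0.644 CPM (-1.25), while HOXD9, at 36.5 ± 5.45 CPM in controls and 35.5 ± 2.65 CPM with the drug, was not called. These 4 calls were lost on leaving out single libraries: HOXB2 without any 1, HOXD10 without any 1 control or without palbociclib 1 or 2, HOXB13 without control 1, control 2 or palbociclib 1, and HOXD11 without control 1, palbociclib 1 or palbociclib 2. Without control 1 the count of called members was 5. The summed fibroblast or mesenchymal markers were 218 to 229 CPM in controls and 310 to 453 CPM with palbociclib. The gastric markers summed to 8.82 to 16.7 CPM and 30.3 to 41.0 CPM, the leukocyte markers to 3.91 to 5.31 CPM and 7.57 to 9.62 CPM, and the intestinal markers to 408 to 441 CPM and 353 to 366 CPM. The part of these was not tested.

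With trametinib no member was called in SW620. In set 1 it was 0 of 25 by edgeR, which called 0% of all 13081 genes. None of the 25 had an unadjusted p under 0.05 by edgeR, beside 366 of the 13081 genes, and DESeq2 called 0 members and 16 of 21183 genes. HOXA10 had a log2 fold change of -3.61 there that rests on control 3; without that library it was 1.02. In set 2 it was 0 of 31 by edgeR, which called 0% of all 12919 genes. Of the 31, 9 had an unadjusted p under 0.05 by edgeR, beside 2204 of all 12919 genes. Values ran from -0.50 to 0.84, and DESeq2 called 0 members and 177 of 21128 genes. Without trametinib 1 edgeR called 882 of 13141 genes there, 1 member among them. For 12 of the 31 members the treated and control groups lay apart without passing the test. HOXD11 was among them, with treated libraries (11.5, 11.6 and 12.9 CPM) above all controls. Compared directly with palbociclib, 5 members were higher and 4 lower with trametinib (29% called, against 32.7% of 13232 genes, of which 15.9% were higher and 16.7% lower): HOXD10 (1.52), HOXD11 (1.39), HOXC4 (1.31), HOXD8 (1.03) and HOXC9 (0.51) were higher, and HOXB4 (-0.63), HOXC13 (-0.50), HOXB8 (-0.37) and HOXB7 (-0.25) were lower. Without palbociclib 1 or without palbociclib 2 the count was 5; HOXB7, HOXB8, HOXC9, HOXC13 and HOXD10 each lost the call without at least 2 single libraries.

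The drug effects of the colorectal lines were also compared with each other. For trametinib in set 2, the effect in SW620 minus that in SW48 was called for 11 of 33 members, 8 higher and 3 lower (33.3% against 28.2% of 14027 genes, of which 15.3% were higher and 12.9% lower), among them HOXD8 (2.20, SE 0.20), HOXC9 (1.44, SE 0.22), HOXA3 (1.34, SE 0.16) and HOXA11 (0.94, SE 0.14). One of the 11, HOXD11, was not tested in SW48 alone, where it had 10, 5 and 7 counts in controls and 1, 0 and 5 with trametinib, so it passed the filter through SW620, and its value rests on SW48 counts near the floor. Of the 26 members tested in each line alone, 10 were called. For trametinib in set 1 it was 9 of 31, 3 higher and 6 lower (29% against 6.73% of 14525 genes, of which 3.95% were higher and 2.78% lower), led by HOXB5 (-4.28, SE 0.48) and HOXA11 (3.62, SE 0.70). That count was 4 or 5 without SW48 control 3, without any 1 SW48 trametinib library, or without SW620 trametinib 1 or 3. The background moves with the libraries too: it was 3.29 to 4.06% of genes without any 1 SW48 library or any 1 SW620 trametinib library, and 16.3% without SW620 control 3, where 10 of 33 members were called. For palbociclib it was 11 of 33, 3 higher and 8 lower (33.3% against 25.7% of 14098 genes, of which 14.6% were higher and 11.2% lower). HOXB4 (-1.17, SE 0.19) rose less in SW620, HOXA10 (-0.75, SE 0.10) and HOXC9 (-0.74, SE 0.16) were lower likewise, and HOXA3 (0.95, SE 0.16), which fell in SW48, was at 0.24 in SW620. HOXB3 (-0.22, SE 0.18) and HOXB8 (-0.06, SE 0.16), which rose in both lines with palbociclib, were not called in that difference.

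Afatinib moved HOX members in 1 of the 4 lines that received it by this test. In BT-474, 5 of 23 members rose and 1 fell (26.1% called, against 42.7% of 12768 genes, of which 20.9% rose and 21.8% fell), a lower share than over all genes. HOXC4 went from 14, 11.8 and 13.1 CPM to 27.2, 22.7 and 26.2 CPM (0.84, SE 0.12), HOXC6 from 68.3, 58.6 and 58.5 CPM to 78.4, 93.7 and 102 CPM (0.44, SE 0.10) and HOXC8 from 23.9, 24.2 and 22 CPM to 35.3, 42.3 and 31.3 CPM (0.51, SE 0.11). HOXC10 fell from 64.5, 62.8 and 63 CPM to 50.5, 45.3 and 56.4 CPM (-0.45, SE 0.09). HOXC9, HOXC11 and HOXC13 were not called (0.02, -0.16 and 0.03). HOXA10 rose from 4.81, 3.61 and 6.88 CPM to 15.4, 13.5 and 10.8 CPM (1.24, SE 0.23), and HOXB6 from 5.61, 5.73 and 7.50 CPM to 13.2, 12.1 and 7.87 CPM (0.68), a call lost without control 1, control 2, afatinib 1 or afatinib 2. The strongly expressed HOXB7 and HOXB13 were not called (-0.15 and 0.05). In this line the summed level of the 7 mammary luminal markers was 927 to 1012 CPM in controls and 1392 to 1473 CPM with afatinib, that of the 6 gastric markers 306 to 334 CPM and 540 to 603 CPM. The fibroblast or mesenchymal markers summed to 109 to 117 CPM and 133 to 142 CPM, the intestinal ones to 143 to 180 CPM and 182 to 207 CPM and the leukocyte ones to 1.5 to 5.88 CPM and 7.22 to 8.85 CPM. The part of these in the result was not tested.

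In NCI-N87, MKN-45 and BT-20 the test called no member. By edgeR it was 0 of 23 in NCI-N87, 0 of 29 in MKN-45 and 0 of 25 in BT-20, and DESeq2 called 0 in each. In each line 2 members had an unadjusted p under 0.05 by edgeR, beside 1523 of 12472, 664 of 12358 and 1602 of 12810 genes. Over all genes the shares called by edgeR were 0%, 0% and 0.585%, and DESeq2 called 38, 0 and 158 genes. These shares depend on single libraries: without NCI-N87 control 1 edgeR called 2108 of 12850 genes (16.4%), 1 member among them, and in BT-20 it called 6, 7, 25 and 22 genes without control 3, control 2, control 1 or afatinib 2, against 75 with all libraries. Fold changes of the tested members ran from -0.34 to 1.04 in NCI-N87, from -0.66 to 1.0 in MKN-45 and from -0.81 to 1.0 in BT-20. The difference of the afatinib effect between BT-474 and BT-20 was called for 1 of 29 members, HOXC4 (0.75, SE 0.20), against 23.8% of 14019 genes (10.2% higher and 13.6% lower). That count was 2 to 5 with any of 9 libraries left out. Between MKN-45 and NCI-N87 it was 0 of 29 by edgeR, against 0.0145% of 13791 genes (9.3% without NCI-N87 control 1), and DESeq2 called 0. An unadjusted p under 0.05 by edgeR was found for 2 members, beside 1578 of the 13791 genes.

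Genes around the HOX system were read from lists, and the count of each is set beside the share of all genes called by edgeR, which was 35.4% in SW48 with trametinib in set 1, 60.1% in set 2, 57.5% with palbociclib, 35% in SW620 with palbociclib and 42.7% in BT-474 with afatinib. Of 8 tested TALE partners, SW48 with trametinib had 3 called higher and 1 lower in set 1 and 5 higher and 1 lower in set 2 (50% and 75% called). MEIS3 rose by 1.84 and 1.40, MEIS2 by 1.27 and 0.82, and TGIF1, a repressor of the same class, fell (-1.16 and -1.18). MEIS3 also rose with palbociclib, by 1.37 in SW48 and by 1.36 in SW620, where it was the one partner of 9 called (11.1%). With palbociclib in SW48 3 of 8 rose and 2 fell (62.5% called), and with afatinib in BT-474 2 of 9 rose and 1 fell (33.3%), MEIS1 (-0.93) and MEIS2 (0.52) among them.

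CDX2 rose in SW48 in each treated group: from 57.6, 68.1 and 90.6 CPM to 397, 411 and 347 CPM with trametinib in set 1 (2.27), and in set 2 from 107, 94.3 and 93.7 CPM to 271, 295 and 282 CPM with trametinib (1.40) and to 158, 180.3 and 162 CPM with palbociclib (0.71). In SW620 CDX2 fell with palbociclib from 30.1 ± 1.43 to 23.6 ± 2.58 CPM (-0.38) and was not called with trametinib. In BT-474 CDX2 had 0 counts in each control and 29, 18 and 19 counts with afatinib. The retinoic acid receptor RARA fell in SW48 in the same 3 comparisons (-1.37, -0.97 and -0.62). Of the 6 tested activators and ParaHOX genes, 1 rose and 2 fell in set 1, 3 rose and 2 fell in set 2, and 1 rose and 2 fell with palbociclib (50%, 83.3% and 50% called, the last near the 57.5% of all genes). In SW620 with palbociclib 1 of 5 rose and 1 fell (40%), and in BT-474 with afatinib 3 of 6 rose and 1 fell (66.7%). Whether these genes move the HOX members was not tested.

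Of the Polycomb genes tested in SW48, 5 of 16 rose and 2 fell with trametinib in set 1, 5 of 17 rose and 8 fell in set 2, and 3 of 17 rose and 9 fell with palbociclib. These are 43.8%, 76.5% and 70.6% of the tested genes, against 35.4%, 60.1% and 57.5% of all genes. EZH2, the methyltransferase that writes the Polycomb mark, fell with palbociclib in SW48 (-1.12) and in SW620 (-0.90) and with afatinib in BT-474 (-0.88). With trametinib in SW48 EZH2 rose in set 1 (0.42) and fell in set 2 (-0.32); these 2 values are named after they were seen. In SW620 with palbociclib 1 Polycomb gene of 17 rose and 5 fell (35.3% called), and in BT-474 with afatinib 5 of 17 rose and 5 fell (58.8%). Of 11 trithorax-type genes and demethylases, 2 rose and 1 fell in SW48 with trametinib in set 1, 3 and 3 in set 2, 1 and 5 with palbociclib, 0 and 7 in SW620 with palbociclib, and 4 and 0 in BT-474. The shares called were 27.3%, 54.5%, 54.5%, 63.6% and 36.4% in that order, against 35.4%, 60.1%, 57.5%, 35% and 42.7% of all genes. KDM6B, which removes the Polycomb mark, fell in SW48 with trametinib in set 2 (-1.38) and rose in BT-474 (0.35). No gene of these 4 lists was called in the other 5 drug comparisons. There edgeR called 0% of all genes, or 0.585% in BT-20 with afatinib, so the lack of calls says little about these lists.

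The other genes of the clusters, mostly antisense transcripts, did not all follow their neighbours. In SW48, HOXA-AS2 fell with trametinib in set 1 from 2.40 ± 0.532 to 0.550 ± 0.195 CPM (-2.21) and in set 2 from 3.86 ± 0.487 to 1.58 ± 0.391 CPM (-1.40). HOTAIRM1, a transcript of the HOXA cluster, was called lower in set 1 (198, 111 and 162 CPM to 107, 22.6 and 60.3 CPM, -1.44, adjusted p = 0.045 by edgeR) and was at -0.05 in set 2. HOXC-AS3 fell in set 2 with trametinib (-1.62) and with palbociclib (-0.67), although HOXC10 rose with palbociclib. HOTAIR, a transcript of the HOXC cluster, rose in BT-474 with afatinib from 17.4, 18.9 and 21 CPM to 35.1, 36.6 and 33.7 CPM (0.75), where HOXC11 was not called. In all 1 of 13 such genes rose and 2 fell in SW48 with trametinib in set 1, 2 of 13 rose and 7 fell in set 2, 5 of 14 rose and 3 fell with palbociclib, 2 of 14 rose and 1 fell in SW620 with palbociclib, and 2 of 7 rose in BT-474 with afatinib. The shares called were 23.1%, 69.2%, 57.1%, 21.4% and 28.6% in that order, against 35.4%, 60.1%, 57.5%, 35% and 42.7% of all genes.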

How the data were processed

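RNA was made into 3′ libraries with the Lexogen QuantSeq kit, per the labels' protocols. Trimmomatic, STAR, featureCounts and the build hg38 are named in the submitters' processing notes; versions, strand setting and annotation are unknown here. The authors deposited 2 tables of raw counts per gene, per the file headers and the values. 5 summary lines of the first table name no gene and stayed out of every fit. Identical counts of the 12 set 1 libraries stand again in the other table and were used once.

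Every comparison had a fit of only its own groups, in R 4.3.3 with edgeR 4.0.16: filterByExpr (minimum count 10, total 15), TMM, quasi-likelihood test, two-sided, Benjamini-Hochberg over all genes tested, threshold 0.05. There were 23 comparisons: 10 of a drug with controls, 5 of a drug effect between lines, 2 of trametinib with palbociclib and 6 of a line with the mean of the others, fitted on 18 control libraries. Levels are CPM of the library total with the SD of 3 libraries. Every called member is named for drug comparisons, values per library are given for members called against controls from a mean of 5 CPM in either group (the rule's limit of 12 per comparison was not applied), and up to 4 called genes of each other list are named. Members and lists were chosen with earlier results of these data known. Libraries held 3401565 to 12806042 counts; the floor of 3 counts covers counting error only, since reads carry no molecular identifiers in these tables. Alternatives were DESeq2 1.42.0, its size factors, no filter, a joint fit over the groups of a set, a block for the replicate number, each library left out, and 0.5 or 5 CPM or TMM-scaled CPM for expressed members. Fits were tested on simulated data. A few genes are not reported here. Figures used matplotlib 3.10.9.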

Additional observations from a re-analysis of the deposited data

Results flagged for a closer look

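The drug effect differed between lines, by a test of the difference itself in edgeR, at the following members. Values are the log2 effect in the first line minus that in the second.

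For trametinib in set 1, SW620 minus SW48, they were HOXA3 (2.81), HOXA11 (3.62), HOXB3 (-3.12), HOXB4 (-2.18), HOXB5 (-4.28), HOXB6 (-2.40), HOXB7 (-1.58), HOXC9 (-1.22) and HOXD8 (2.10). HOXB3, HOXB6, HOXB7, HOXC9 and HOXD8 lost the call on leaving out any of 5 to 10 single libraries.

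For trametinib in set 2, SW620 minus SW48, they were HOXA3 (1.34), HOXA5 (0.80), HOXA11 (0.94), HOXB2 (1.29), HOXB4 (-0.68), HOXB7 (-0.48), HOXC5 (-1.69), HOXC9 (1.44), HOXC10 (0.76), HOXD8 (2.20) and HOXD11 (2.38). HOXC9 has opposite signs in the sets, as it does in SW48 itself. HOXD11 was under 2 CPM in every SW48 control and was not tested in SW48 alone. HOXB2 and HOXD11 lost the call without either of 2 libraries and HOXB4 without any of 5.

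For palbociclib, SW620 minus SW48, they were HOXA3 (0.95), HOXA5 (0.49), HOXA10 (-0.75), HOXA11 (0.59), HOXB4 (-1.17), HOXB5 (-0.69), HOXB6 (-0.46), HOXB7 (-0.60), HOXB9 (-0.70), HOXC9 (-0.74) and HOXC10 (-0.60). HOXA11 lost the call without any of 5 libraries and HOXB6 without SW620 control 1.

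For afatinib, BT-474 minus BT-20, it was HOXC4 (0.75).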

How the results depend on the processing

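The count of called HOX members stayed within 1.5 times its value under most alternatives. Exceptions were trametinib in SW620, set 2 (0 members; 2 with no filter on low counts, 3 in a joint fit over the set, 0 to 1 with 1 library left out, the 1 being without trametinib 1), afatinib in NCI-N87 (0; 1 in a joint fit, 0 to 1 with 1 library left out, the 1 being without control 1), the afatinib difference BT-474 minus BT-20 (1; 4 with DESeq2 size factors, 7 with no filter, 1 to 5 with 1 library left out: 5 without BT-474 afatinib 3, 4 without BT-474 control 1, 3 without BT-474 control 2 or afatinib 1 or 2, and 2 without BT-474 control 3, BT-20 control 1 or 3, or BT-20 afatinib 1), the difference MKN-45 minus NCI-N87 (0; 0 to 1, the 1 being without NCI-N87 control 1), palbociclib in SW620 (9; 5 to 8, the 5 being without control 1), trametinib against palbociclib in SW620 (9; 5 to 9, the 5 being without palbociclib 1 or 2) and the trametinib difference in set 1 (9; 4 to 10). The cause was not tested. BT-474 expressed 10 members at 5 CPM against 18 at 1 CPM.

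Whether the replicate numbers pair the libraries is not known here. Correlations of same-numbered libraries, as deviations from their group means, ran from -0.17 to 0.12, and in no comparison was every pair over the limit set. With 3 libraries in a group this shows no strong shared deviation and cannot settle the pairing. With the replicate number as a block the count was 4 for the trametinib difference in set 1 and 3 for BT-474 minus BT-20, and it moved no other count by over 1.5 times.

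Of 269 log2 fold changes of called members, in all comparisons, 210 kept their direction and call under every alternative run, and none changed sign. The share kept differed by comparison: 27 of 29 for SW48 against the other lines, and 17 of 19 for SW48 with palbociclib. With trametinib in SW48 it was 10 of 16 in set 1 and 15 of 20 in set 2. It was 5 of 9 for palbociclib in SW620, and 4 of 9 for trametinib against palbociclib there. For the trametinib difference in set 1 it was 2 of 9. The set 1 calls of HOXA13, HOXB8, HOXB13 and HOXD4 in SW48 were lost in the joint fit only. HOXA10 in SW620 of set 1 with trametinib, not called at -3.61, ran from -4.17 to 1.02 with 1 library left out and changed sign without control 3. Another scaling moved the median of all genes by at most 0.06 (log2).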
